A study of Mus musculus with 4 samples.

Results

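The genes that encode histones were compared between lung endothelial cells (ECs) taken 7 days after pneumonectomy (PNX, the removal of one lung, after which the remaining lung grows) and ECs of sham-operated mice. A gene was included when its symbol begins with Hist1h, Hist2h, Hist3h or Hist4h, the names of the replication-dependent genes by cluster, or when it was one of 10 replacement variants given by name. This rule found 78 of the 24063 gene symbols in the tables, 68 replication-dependent genes and the 10 variants. By their symbols, the replication-dependent genes are those of linker histone H1 (6 genes), H2A (18), H2B (19), H3 (12) and H4 (13). The H2B symbols include Hist3h2bb-ps, a pseudogene by its name. Of the 68 genes 54 are in the Hist1 cluster, 10 in Hist2, 3 in Hist3 and 1 in Hist4.

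Nucleosomes wrap DNA around the core histones H2A, H2B, H3 and H4, and H1 binds the DNA that enters and leaves them. Replication-dependent genes are transcribed mainly in S phase and lack introns as a rule, and their mRNA ends after a short stem-loop bound by the protein SLBP in place of a poly(A) tail. Replacement variants are made throughout the cell cycle from polyadenylated mRNA, and some replication-dependent genes also give polyadenylated mRNA, above all in cells that have left the cycle. Libraries that start from poly(A) RNA therefore see the variants well and the replication-dependent genes in part.

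The mice were C57BL6, 8 weeks old and described as male, and neither group carried a transgene or a deletion according to the labels. The sham group and the post-PNX group had 2 libraries each, and each library is described as the CD31-selected ECs of 2 pooled mice. The p-values measure the spread between the libraries of a group. This spread was small, with a median SD of 0.036 on the log2 scale. Measured against counting error, the mean chi-square per gene was 1.74 between the sham libraries and 1.51 between the post-PNX libraries. How much of the spread lies between mice was not tested. The selection leaves RNA of other cells in the sample, and in bulk RNA fewer cells of a type cannot be told apart from less RNA per cell.

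The libraries held between 41367438 and 50952879 counts with 1 transcript per gene, and 3 counts, the floor used here, came to between 0.0589 and 0.0725 CPM. All 12 endothelial markers were far above this floor. None of 46 chromosome Y genes had a count in any library while Xist had between 29890 and 36875, which goes against the label of male mice in both groups alike. In post-PNX ECs the summed CPM of 20 genes of S phase and division rose from 405 and 403 to 1347 and 1331, with 20 of the 20 higher. The summed markers of macrophages moved from between 431 and 437 CPM to between 1017 and 1019 CPM (6 of the 6 in the tables higher), those of fibroblasts from between 1000 and 1009 to between 3035 and 3047 (5 of 6 higher, 1 lower) and those of the mesothelium from between 211 and 214 to between 459 and 466 (5 of 5 higher). All 5 B cell, 5 T cell and 6 epithelial markers were lower, as were 9 of the 12 endothelial markers, while 2 of these were higher. Of the pan-leukocyte markers 4 of 6 were higher and 1 lower, and 4 of 4 neutrophil, 3 of 5 platelet and 3 of 6 tested erythroid markers were higher. Higher and lower here mean an adjusted p under 0.01, at which 29.3% of all genes tested were higher and 27.8% lower. The part of these shifts in the results on histone genes was not tested.

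The stem-loop was searched for in the GENCODE transcripts of 77 of the 78 genes, to show which of them carry the signal for an end without a poly(A) tail. It has 6 paired bases on each side of a loop of 4 bases. A match was present in 46 of the 67 replication-dependent genes with a transcript, in 1 of the 10 variants (H2afx) and in 56 of all 55450 genes (0.101%), 47 of which were among the genes described here. All 47 matches were in the 3′ UTR, between 21 and 58 bases after the stop codon. Of the 21 replication-dependent genes without a match, 14 had no annotated transcript longer than 450 bases, so that the model may stop short of it. Hist1h1b, Hist1h2bc and Hist2h2be had no match, with GENCODE transcripts of 743, 1156 and 2620 bases. The lines that follow show the stem-loop of genes on which the results turn and that had a match, 5′ to 3′. The stem is in capitals, with 5 bases of the transcript on each side, from GENCODE M21 on GRCm38 (mm10). The coordinates are those of the 16 bases of stem and loop.
Hist1h1c, chr13:23739512-23739527, + strand: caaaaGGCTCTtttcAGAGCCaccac
Hist3h2a, chr11:58955172-58955187, + strand: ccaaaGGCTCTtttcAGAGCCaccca
Hist1h2be, chr13:23585531-23585546, - strand: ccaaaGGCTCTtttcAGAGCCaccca
Hist1h2bb, chr13:23747203-23747218, + strand: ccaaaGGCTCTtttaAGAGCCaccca
Hist2h3c1, chr3:96247327-96247342, + strand: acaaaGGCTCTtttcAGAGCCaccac
Hist1h4i, chr13:22040966-22040981, - strand: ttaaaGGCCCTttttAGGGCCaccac
Hist1h4b, chr13:23757366-23757381, + strand: caaaaGGTCCTtttcAGGACCactca
H2afx, chr9:44335240-44335255, + strand: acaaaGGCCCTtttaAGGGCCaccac

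The form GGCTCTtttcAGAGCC was found in 26 genes, 3 of H1, 10 of H2A, 8 of H2B and 5 of H3, and in none of H4. The H4 genes had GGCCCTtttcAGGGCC (7 genes), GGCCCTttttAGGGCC (2), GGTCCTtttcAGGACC (2) and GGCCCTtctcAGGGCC (1). The stem of H2afx has the same paired bases as most of the H4 stems. Of the 46 replication-dependent genes with the stem-loop, 23 had a transcript that ran more than 100 bases past it. In 17 of the 67 genes a transcript had AATAAA or ATTAAA, the letters of the poly(A) signal, in its last 50 bases. These 17 genes held 57.2% and 56.7% of all replication-dependent counts in sham ECs against 54.5% and 53.5% after PNX. Hist1h2bc, with the most counts, was not among them. The letters were searched in GENCODE transcripts, while the counts are on RefSeq transcripts that can be shorter, as for Hist1h1c (1560 against 725 bases). The percentages are therefore not shares of polyadenylated RNA.

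Promoters of 62 replication-dependent genes and 9 variants were found in the RefSeq windows (GRCm38.p6), which run from 250 bases before to 50 after the start. The letters CCAAT, searched on both strands like all motifs here, were in every window of an H1 (6 of 6), H2A (18 of 18), H2B (16 of 16) or H3 gene (10 of 10), in 3 of 12 windows of H4 and in 6 of 9 of the variants, against 37.9% of all 27025 windows. TATAAA was in 35 of the 62 replication-dependent windows (56.5%) and 1 of the 9 variant windows, against 14.2% of all. The octamer ATTTGCAT, known from H2B promoters, was in 7 of 18 windows of H2A, 6 of 16 of H2B and 0 of the windows of H1, H3 and H4, against 1.75% of all. AAACACA, known from H1 promoters, was in 5 of 6 windows of H1 and 7.14% of all. Windows of neighbouring H2A and H2B genes can overlap, as for Hist1h2aa and Hist1h2ba, so the same match can be counted in both types. Matches of different motifs overlapped in none of the 71 windows. A match is a description of the letters and not a site shown to be used.

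An H2A gene and an H2B gene start back to back, at most 500 bases apart, in 12 pairs. The stretch between the start sites is shown for the pairs that hold the H2B genes with the most counts, on the strand of the H2A gene, and the 250 bases before the start are shown for the H1 genes that rose, with motif matches in capitals.
Hist1h2ac to Hist1h2bc, chr13:23683949-23684198, - strand: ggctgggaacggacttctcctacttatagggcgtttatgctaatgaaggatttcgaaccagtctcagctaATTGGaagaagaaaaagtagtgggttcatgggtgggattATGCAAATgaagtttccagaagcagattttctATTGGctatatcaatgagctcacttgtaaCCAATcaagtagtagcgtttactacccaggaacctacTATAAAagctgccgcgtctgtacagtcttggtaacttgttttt
Hist2h2ac to Hist2h2be, chr3:96220881-96221118, - strand: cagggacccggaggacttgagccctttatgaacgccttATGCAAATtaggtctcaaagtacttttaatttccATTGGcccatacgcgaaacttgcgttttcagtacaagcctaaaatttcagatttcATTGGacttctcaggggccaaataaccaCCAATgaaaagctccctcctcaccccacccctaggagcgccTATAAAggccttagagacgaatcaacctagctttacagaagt
Hist1h1b, chr13:21780626-21780875, - strand: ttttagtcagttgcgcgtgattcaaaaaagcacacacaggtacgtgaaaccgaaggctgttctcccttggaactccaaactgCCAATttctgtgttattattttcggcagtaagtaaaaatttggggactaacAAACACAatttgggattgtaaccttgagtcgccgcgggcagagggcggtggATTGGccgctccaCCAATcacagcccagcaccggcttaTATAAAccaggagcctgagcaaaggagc
Hist1h1c, chr13:23738557-23738806, + strand: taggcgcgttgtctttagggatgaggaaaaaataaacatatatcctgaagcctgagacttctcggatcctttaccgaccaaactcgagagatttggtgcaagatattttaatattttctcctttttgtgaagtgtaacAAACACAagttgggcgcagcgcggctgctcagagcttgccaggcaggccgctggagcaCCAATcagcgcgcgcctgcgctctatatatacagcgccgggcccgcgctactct

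Among the replacement variants, H1fx and H2afx rose most after PNX, H2afz and H1f0 followed, and H3f3a, which encodes the same protein as H3f3b, did not pass the test. A gene was tested with edgeR's quasi-likelihood test and called at a Benjamini-Hochberg adjusted p under 0.01 over the 16208 genes tested. At this threshold 8 of the 10 variants were higher and 0 lower, while 29.3% of all genes tested were higher and 27.8% lower. With a log2 fold change above 1 as well, 2 of the 10 were higher, against 5.9% of all genes tested (7.56% in either direction). The median log2 fold change of the 10 variants was 0.25, against 0.00 for all genes tested. Scaled to the endothelial markers, which raised the median of all genes by 0.24 on the log2 scale, 10 of the 10 variants were called higher, as were 56.3% of all genes tested. The summed variants came to 1180 and 1143 CPM in sham ECs against 1497 and 1489 CPM after PNX.

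H1fx, on chromosome 6, encodes a linker histone outside the clusters. It had 48.0 and 51.0 normalized counts (counts scaled to the mean library size) in sham ECs against 313 and 303 after PNX. The groups lay far apart, with a log2 fold change of 2.64 (standard error [SE] 0.137, adjusted p = 8.9e-26). H1f0, on chromosome 15, encodes the linker histone known for cells that have left the cycle. It had 5957 and 6208 normalized counts in sham ECs and 11308 and 11541 after PNX, a log2 fold change of 0.91 (SE 0.023, adjusted p = 1.3e-41).

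H2afx, on chromosome 9, encodes H2AX, which is phosphorylated around DNA breaks, and is the variant whose mRNA has the stem-loop shown above. Its annotated transcript runs on for 822 bases past the stem-loop to a poly(A) signal. It had 556 and 626 normalized counts in sham ECs against 1634 and 1642 after PNX, with a log2 fold change of 1.47 (SE 0.052, adjusted p = 4.2e-34). The sham libraries differed more than the post-PNX libraries, and the groups did not overlap. H2afz, on chromosome 3, encodes H2A.Z, which marks promoters. It rose from 2931 and 2864 to 5544 and 5396 normalized counts, by 0.92 on the log2 scale (SE 0.029, adjusted p = 7.8e-37). Of the windows of 75 bases in the H2afz transcript, 61.7% are also present in other genes, and the part of such reads in its counts was not tested. H2afv, on chromosome 11, encodes a close relative of H2A.Z and had 1610 and 1639 normalized counts in sham ECs and 1966 and 1969 after PNX, a log2 fold change of 0.28 (adjusted p = 7.8e-09).

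H3f3b and H3f3a encode the H3 variant that replaces H3 outside replication. H3f3b, on chromosome 11, had the highest level of all 78 genes, with 28680 and 28043 normalized counts in sham ECs and 33559 and 33039 after PNX. It rose by 0.23 on the log2 scale (SE 0.018, adjusted p = 8.7e-18). H3f3a, on chromosome 1, had 8014 and 6765 normalized counts in sham ECs against 7474 and 7369 after PNX, which lie between the sham values. Its log2 fold change was 0.00 (SE 0.033, adjusted p = 0.932). Its direction was set by the sham library left in, with a log2 fold change of 0.13 without the first (adjusted p = 4.5e-05) and of -0.11 without the second (adjusted p = 3.2e-04). For H3f3a 27.9% of the windows of 75 bases in its GENCODE transcript of 2841 bases are shared with other genes. The transcript that was counted has 1076 bases, and its own share was not computed.

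The remaining variants moved little. H2afy and H2afy2 encode macroH2A proteins, found on silent chromatin. H2afy had 4493 and 4425 normalized counts in sham ECs and 4733 and 4921 after PNX, a log2 fold change of 0.11 (adjusted p = 2.9e-04). H2afy2 had 992 and 926 and then 1037 and 1112, a log2 fold change of 0.16 (adjusted p = 0.0057). H2afj, an H2A gene whose transcript is polyadenylated, had 1167 and 1202 and then 1250 and 1323, and its log2 fold change of 0.12 did not pass (adjusted p = 0.023). The calls of H2afy and H2afy2 were lost when some libraries were left out, with an adjusted p as high as 0.029 for H2afy and 0.119 for H2afy2.

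Per transcript length, the variants and a few replication-dependent genes were the most abundant. In TPM, the deposited values that are scaled to transcript length, H3f3b rose from 493 ± 8.24 to 566 ± 6.44 (mean ± SD, n = 2 per group, sham first). H3f3a followed with 238 ± 28.7 and 234 ± 2.40 TPM. H2afz and H1f0 came next in both groups, at 94.0 ± 1.59 and 92.1 ± 2.61 TPM in sham ECs, which is within their spread, and at 173 ± 3.37 and 169 ± 2.38 TPM after PNX. Of the replication-dependent genes, Hist1h2bc (78.9 ± 0.144 and 101 ± 0.0684 TPM) stood level with H2afy (78.9 ± 0.918 TPM) in sham ECs and above it (83.5 ± 2.27 TPM) after PNX. The means over all 4 libraries were below 1 TPM in 41 of the 62 replication-dependent genes with any count.

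**Figure D1:**
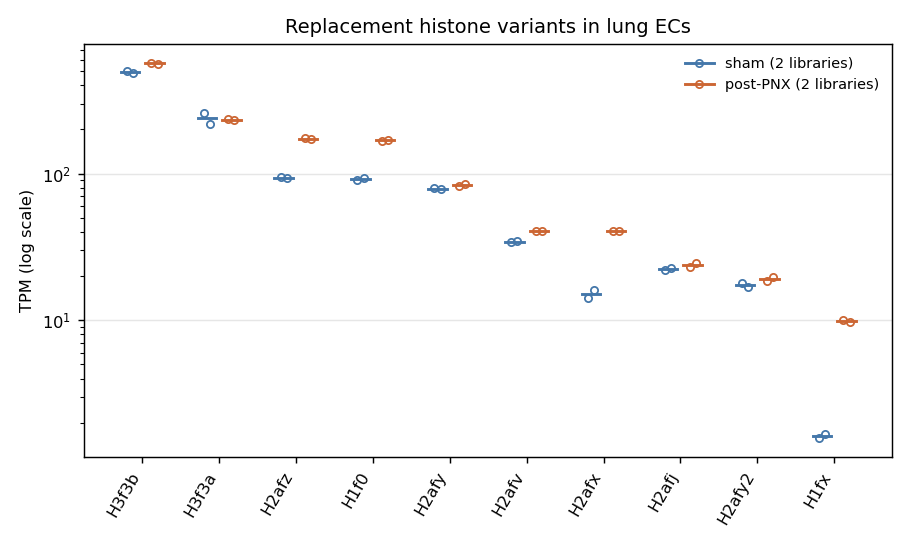
TPM of the 10 replacement variants in each library, on a log axis. Points are libraries and bars the mean of the 2 libraries of a group, and the sham and post-PNX points stand clear of each other for H1fx, H2afx, H2afz and H1f0 but not for H3f3a.

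The replication-dependent genes were low, and most of their counts came from a few of them. Of the 68, 6 had no count in any library, a further 9 had at most 3 counts in each, and 48 had at least 1 count in every library. A mean of at least 100 counts was reached by 5 genes, Hist1h2bc, Hist1h1c, Hist3h2a, Hist2h2be and Hist1h2be, which together held 85.6% and 85.1% of the replication-dependent counts in sham ECs against 85.4% and 83.0% after PNX. These 5 follow from their counts, and 4 of them have a GENCODE transcript with a poly(A) signal in its last 50 bases. Summed over all 68 genes, the level was 108 CPM (95% exact binomial interval 105 to 111) and 109 CPM (106 to 112) in sham ECs and 134 CPM (131 to 138) and 135 CPM (132 to 139) after PNX, 1.24 times as high. Without the 5 genes it was 15.6 and 16.2 CPM and then 19.7 and 22.9 CPM, 1.34 times as high. The intervals cover counting error only.

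The filter on low counts was passed by 31 of the 68 genes. At an adjusted p under 0.01, 6 of the 31 were higher (29.3% of all genes tested) and 1 lower (27.8% of all), and 24 did not pass. With a log2 fold change beyond 1 as well, 3 were higher (5.9% of all) and 0 lower (1.66% of all). At an unadjusted p under 0.05, 11 were higher (34.6% of all) and 1 lower (33.6% of all). The median log2 fold change of the 31 genes was 0.23, with 22 above 0, and that of all genes tested 0.00. The post-PNX libraries were both above the sham libraries in 17 of the 31 genes (40.8% of all genes) and both below in 4 (40.5% of all, and 81.2% in either direction). With the libraries scaled to the 12 endothelial markers, 10 of the 31 were higher (56.3% of all) and 1 lower (9.59% of all).

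**Figure D2:**
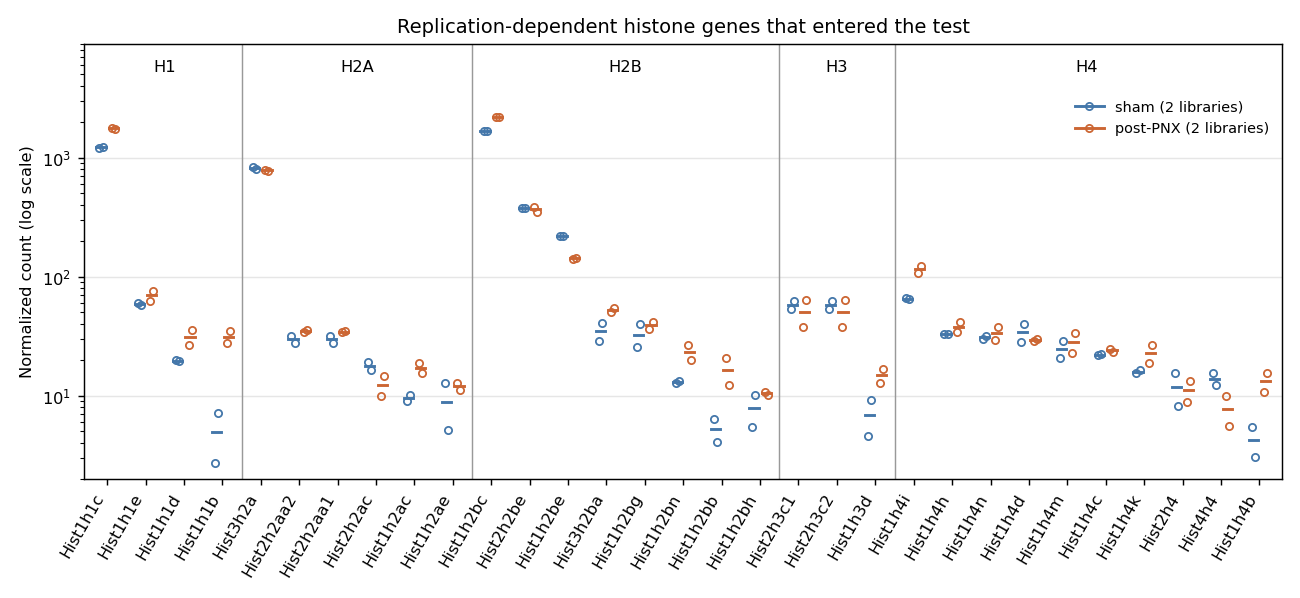
Normalized counts of the 31 replication-dependent genes that entered the test, on a log axis, grouped by the histone they encode. Points are libraries and bars the mean of the 2 libraries of a group, and most H2A, H3 and H4 genes lie below 100 with groups that overlap or nearly touch.

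The linker histone genes rose as a sum, and Hist1h1c made up most of it. Summed over the 6 H1 genes, counts were 1423 and 1300 in sham ECs and 1943 and 1695 after PNX, a log2 fold change of 0.54 (SE 0.041, adjusted p = 1.1e-18 with each type entered as 1 row). Hist1h1c, on chromosome 13, had 1199 and 1233 normalized counts in sham ECs and 1780 and 1730 after PNX. Its rise was 0.53 on the log2 scale (SE 0.043, adjusted p = 4.7e-17). The counted transcript is 725 bases long, while the GENCODE model of the gene runs 840 bases past the stem-loop to a poly(A) signal.

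Hist1h1b, which encodes the H1 subtype known from dividing cells, had the largest change of any replication-dependent gene tested, at very low counts. It had 3 and 7 counts in sham ECs against 28 and 31 after PNX, a log2 fold change of 2.65 (SE 0.432, adjusted p = 2.5e-07). The groups did not overlap. The log2 fold change was 3.44 without the second sham library and 2.09 without the first, and it passed with any 1 library left out. None of its windows of 75 bases is shared with another gene. Hist1h1d had 22 and 19 counts and then 27 and 32, and Hist1h1e 66 and 57 and then 64 and 68. Neither passed (adjusted p = 0.058 and 0.307). Part of the GENCODE model of Hist1h1e (1930 bases) overlaps the first exon of Hist1h2be on the same strand. The Hist1h1e transcript that was counted has 782 bases and ends before this exon. Of the other H1 genes, Hist1h1a had 34 counts and Hist1h1t 6 in all 4 libraries together.

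The H2A genes showed no change that passed the test. Their sums were 1049 and 888 counts in sham ECs and 955 and 829 after PNX, a log2 fold change of 0.00 (SE 0.053, adjusted p = 0.95), which became 0.24 (adjusted p = 1.5e-04) when libraries were scaled to the endothelial markers. Most of the sum was Hist3h2a, on chromosome 11, with 826 and 794 normalized counts in sham ECs and 789 and 778 after PNX. Both post-PNX values were lower, without passing (log2 fold change -0.05, adjusted p = 0.452), and under the endothelial scaling the gene was called higher (0.19, adjusted p = 0.0037). Its GENCODE model of 2146 bases overlaps that of Trim17, and 30.6% of the windows of this model are shared with other genes, most with Trim17. Hist2h2aa1 and Hist2h2aa2 are copies with counts that were equal in 3 of 4 libraries and differed by 1 in the other, 35 and 27 in sham ECs and 35 and 31 after PNX for Hist2h2aa1, so their reads cannot be assigned to either. Of the 18 H2A genes 6 were tested, 3 had no count and 4 others at most 3 in any library.

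Within H2B, genes moved in opposite directions. Hist1h2bc, on chromosome 13, had 1658 and 1655 normalized counts in sham ECs and 2180 and 2179 after PNX. The libraries of a group were almost equal, and the gene rose by 0.40 on the log2 scale (SE 0.038, adjusted p = 3.9e-14). Hist1h2be had 219 and 220 normalized counts in sham ECs and 141 and 144 after PNX, the only replication-dependent gene of the 31 tested that was called lower (log2 fold change -0.62, SE 0.116, adjusted p = 4.0e-06). Hist2h2be, on chromosome 3, had 377 and 374 and then 385 and 349, groups that overlap (log2 fold change -0.03, adjusted p = 0.765). The 19 H2B genes together rose by 0.28 (SE 0.033, adjusted p = 3.5e-11), from 2606 and 2330 to 2940 and 2562 counts. Most of this sum was Hist1h2bc, with 1830 and 1624 counts in sham ECs and 2219 and 1956 after PNX. The sum without Hist1h2bc was not tested.

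The H2B genes with the most counts were counted on transcripts that depart from the short intronless form. The GENCODE transcript of Hist1h2bc has a coding exon (chr13:23684199-23684621) spliced to a noncoding exon (chr13:23692176-23692908) and holds no stem-loop. In the tables its short transcript of 469 bases had fewer counts than the transcript of 728 bases, by 37.7% and 38.7% in sham ECs and by 33.8% and 31.6% after PNX. Counts on the short transcript were 1140 and 995 in sham ECs and 1469 and 1338 after PNX. Hist1h2be has a noncoding first exon (chr13:23620916-23621124), and its coding exon (chr13:23583670-23585966) runs past the stem-loop shown above for 1861 bases. Its long transcript of 2506 bases had 242 and 216 counts and then 144 and 129, and the short one of 445 bases had 83 and 59 and then 51 and 40. Both transcripts of Hist1h2be were lower in each post-PNX library than in each sham library. Hist2h2be is a single exon of 2620 bases with no match for the stem-loop, and it shares none of its windows with another gene.

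Hist1h2bb was the only H2B gene past both thresholds, with 7 and 4 counts in sham ECs and 21 and 11 after PNX (log2 fold change 1.64, SE 0.492, adjusted p = 0.0029). At counts this low the call was lost when the first sham, the second sham or the first post-PNX library was left out, with an adjusted p of 0.0126, 0.046 and 0.178. Of its windows 36.6% are shared with other genes. Of the 19 H2B genes 8 were tested, and 3 had no count.

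In the divergent pairs shown above, the H2A gene had far fewer counts than the H2B gene. Hist1h2ac had 10, 10, 19 and 14 counts where Hist1h2bc, which starts 250 bases away, had between 1624 and 2219, and Hist2h2ac had 21, 16, 10 and 13 counts where Hist2h2be had between 313 and 416. These pairs were chosen for the counts of their H2B genes. In Hist1h2ac the 2 post-PNX values were above the sham values without passing the test (log2 fold change 0.84, adjusted p = 0.072), and in Hist2h2ac they were below (log2 fold change -0.56, adjusted p = 0.211). In 3 of the other 10 pairs neither gene had a count, and in the 10 no gene had more than 39 counts in a library. The pairs without a count include Hist1h2ao with Hist1h2bq and Hist1h2ap with Hist1h2br, whose windows are nearly all shared with other genes.

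H3 and H4 genes were low throughout. The 12 H3 genes summed to 150 and 153 counts in sham ECs and 137 and 182 after PNX (log2 fold change 0.20, adjusted p = 0.194), and the post-PNX libraries lay on either side of the sham libraries. Without the first post-PNX library the change was 0.48 (adjusted p = 0.0038), and without the second it was -0.11 (adjusted p = 0.588). With pairs of equal counts taken once, an alternative chosen after seeing the data, it was 0.42 (adjusted p = 0.020). Hist2h3c1 and Hist2h3c2, whose genes are copies, had equal counts in 4 of 4 libraries (59, 61, 38 and 57 in each gene), so each read was counted on both or split evenly. Together they made up most of the H3 sum in every library. Their groups overlapped (log2 fold change -0.21, adjusted p = 0.403). The sum of the other H3 genes was not tested. Hist1h3d, the other H3 gene tested, had 5 and 9 counts and then 13 and 15 (log2 fold change 1.11, adjusted p = 0.038).

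Summed over the 13 H4 genes, which in mouse encode the same protein or nearly so, counts went from 291 and 259 to 314 and 330, a log2 fold change of 0.35 (SE 0.093, adjusted p = 7.1e-04). The call did not pass without the second post-PNX library (0.23, adjusted p = 0.077). Hist1h4i, with the H4 stem-loop shown above, had 73 and 63 counts in sham ECs and 108 and 111 after PNX. Its log2 fold change was 0.81 (SE 0.166, adjusted p = 2.2e-05). Of the 10 H4 genes tested 2 were called higher (29.3% of all genes tested) and 8 did not pass. The H4 sum without Hist1h4i was not tested. Hist1h4b, named for its call, had 6 and 3 counts and then 11 and 14 (log2 fold change 1.57, adjusted p = 0.0097), and its call was lost whichever library was left out, with an adjusted p between 0.0245 and 0.166. Of its windows 74.0% are shared with other H4 genes or elsewhere. Hist1h4h had 36 and 32 counts and then 35 and 37, and Hist1h4n 33 and 31 and then 30 and 34, without passing (adjusted p = 0.494 and 0.703).

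**Figure D3:**
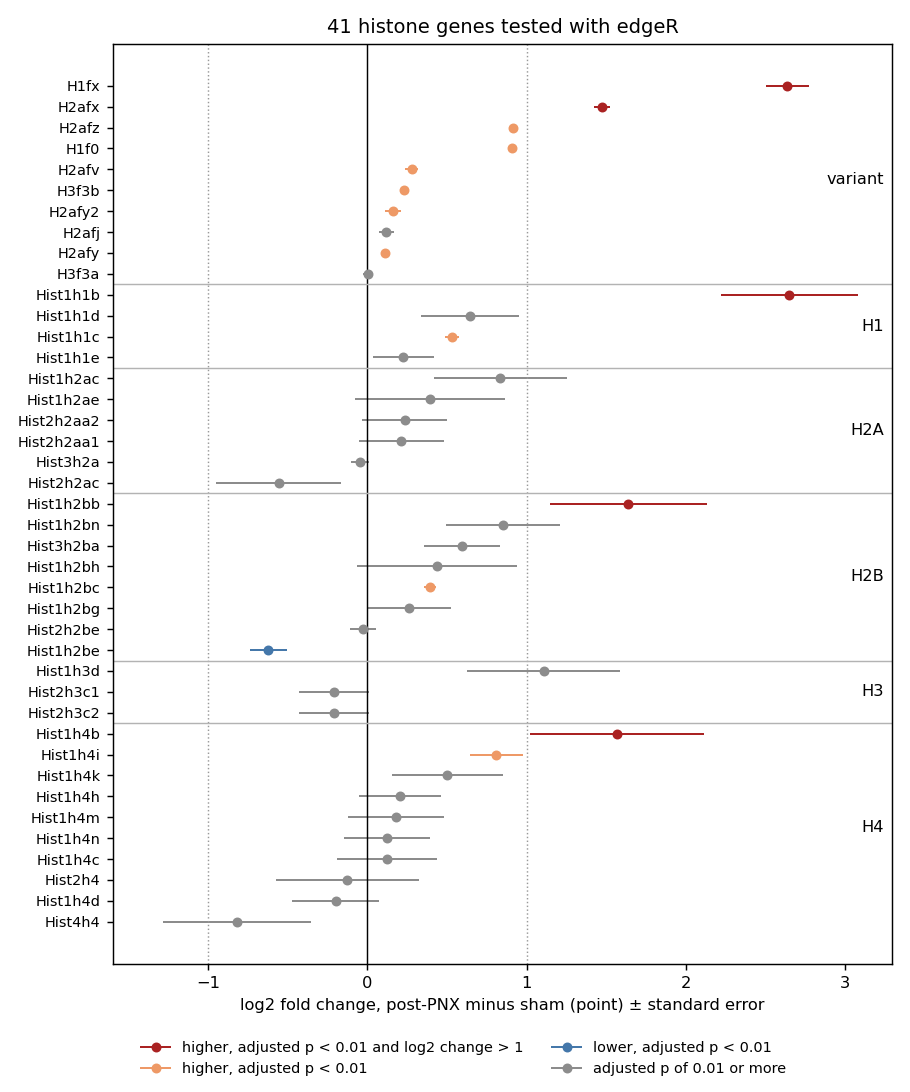
Log2 fold change of the 41 histone genes tested, post-PNX minus sham, with the standard error as a bar and colour for the call. H1fx, Hist1h1b, Hist1h2bb, Hist1h4b and H2afx lie beyond 1 with a call, Hist1h3d lies beyond 1 without one, and Hist1h2be is the 1 gene called lower.

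The 37 replication-dependent genes that did not enter the test had few counts. In 31 of them at least 1 count was found, with totals between 1 and 38 over the 4 libraries, and summed over the 37 the counts were 103 and 75 in sham ECs against 154 and 150 after PNX. Hist1h2bk, chosen after its values were seen, had 0 counts in both sham libraries and 5 and 3 after PNX. No change is given for any one of these genes.

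The genes that make and handle histones rose in part. Slbp, which encodes the stem-loop binding protein, had 1281 and 1140 counts in sham ECs and 2286 and 2119 after PNX, a log2 fold change of 0.99 (SE 0.041, adjusted p = 1.9e-30). Npat, which encodes the coactivator of histone gene transcription in S phase, had 1683 and 1348 counts and then 1473 and 1307 (log2 fold change 0.00, adjusted p = 0.986), and was called higher under the endothelial scaling (0.24, adjusted p = 5.4e-05). Of 26 genes for the synthesis and processing of histone mRNA, all tested, 10 were higher (29.3% of all genes) and 6 lower (27.8% of all) at an adjusted p under 0.01, and 3 were higher past both thresholds (5.9% of all). These were E2f1 (log2 fold change 1.40), a transcription factor of the entry into S phase, and the cyclin E genes Ccne1 (2.29) and Ccne2 (1.17). Ccne1 had 80 and 78 counts in sham ECs against 382 and 328 after PNX. The 6 lower genes fell by between 0.10 and 0.43 on the log2 scale, with Pou2f1, which encodes the octamer-binding protein OCT1, at -0.43 (2470 and 2104 counts, then 1621 and 1485).

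Of 39 listed genes for chaperones and depositing complexes 37 were in the tables and tested, with 21 higher (29.3% of all genes) and 7 lower (27.8% of all) at an adjusted p under 0.01 and 5 higher past both thresholds (5.9% of all). The subunits of CAF-1, which deposits H3 and H4 on newly copied DNA, were Chaf1a with 342 and 299 counts and then 1036 and 943 (log2 fold change 1.75), and Chaf1b with 167 and 156 and then 689 and 589 (2.11). Asf1b, a chaperone of H3 and H4, had 161 and 168 and then 718 and 634 (2.16). Mcm2, a helicase subunit that also binds H3 and H4, rose by 1.57. Oip5, which belongs to the complex that prepares centromeres for CENP-A, had 48 and 39 and then 265 and 221 (2.60). Cenpa itself, the centromeric H3 variant, had 479 and 427 counts in sham ECs and 1570 and 1427 after PNX, a log2 fold change of 1.85 (SE 0.055, adjusted p = 4.1e-38). Of the chaperones that deposit the H3.3 variant outside replication, Hira had 2634 and 2303 counts and then 2342 and 2034 (log2 fold change -0.05, adjusted p = 0.192), and Atrx fell by 0.27 on the log2 scale (adjusted p = 1.6e-16).

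Over the 63 genes of both lists the median log2 fold change was 0.11, against 0.00 for all genes tested. Past both thresholds 8 were higher (5.9% of all genes tested) and 0 lower (1.66% of all). With libraries scaled to the endothelial markers, 52 of the 63 were called higher (56.3% of all genes tested) and 2 lower (9.59% of all). Of the 13 that were lower without this scaling, 7 turned positive and 2 were still called lower.

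**Figure D4:**
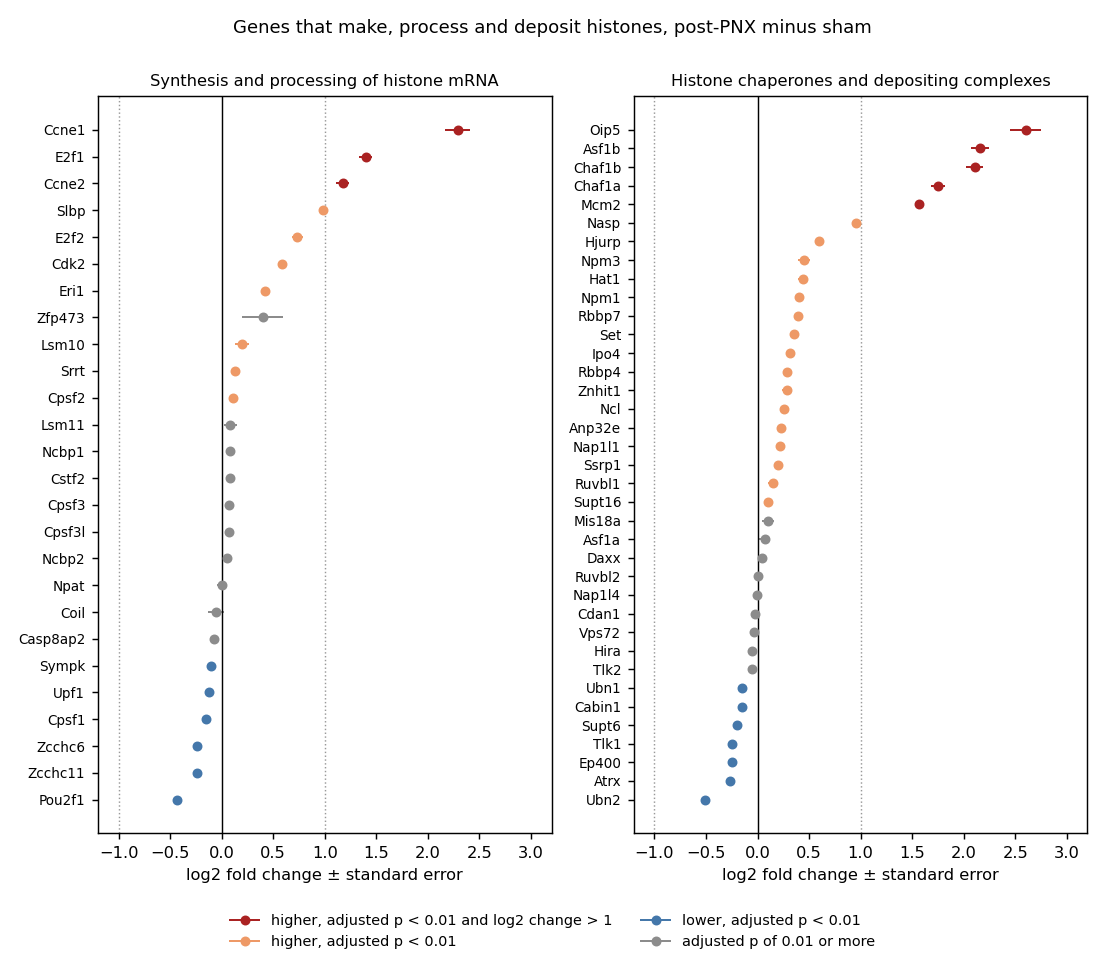
Log2 fold change of the 26 genes for the synthesis and processing of histone mRNA (left) and of the 37 chaperone and deposition genes (right), with the standard error as a bar and colour for the call. The 8 genes beyond 1 stand above a larger number close to 0.

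Side by side, the groups of genes differed in how far they moved. Summed CPM after PNX was 1.46 times the sham level for H1, 1.01 times for H2A, 1.22 times for H2B, 1.16 times for H3, 1.28 times for H4 and 1.29 times for the replacement variants. It was 1.1 times for the genes that make and handle histones and 3.31 times for the 20 genes of S phase and division. Of these 20 genes, 18 were higher past both thresholds (5.9% of all genes tested), and their log2 fold changes had a median of 1.88. These differences between groups of genes were not tested.

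**Figure D5:**
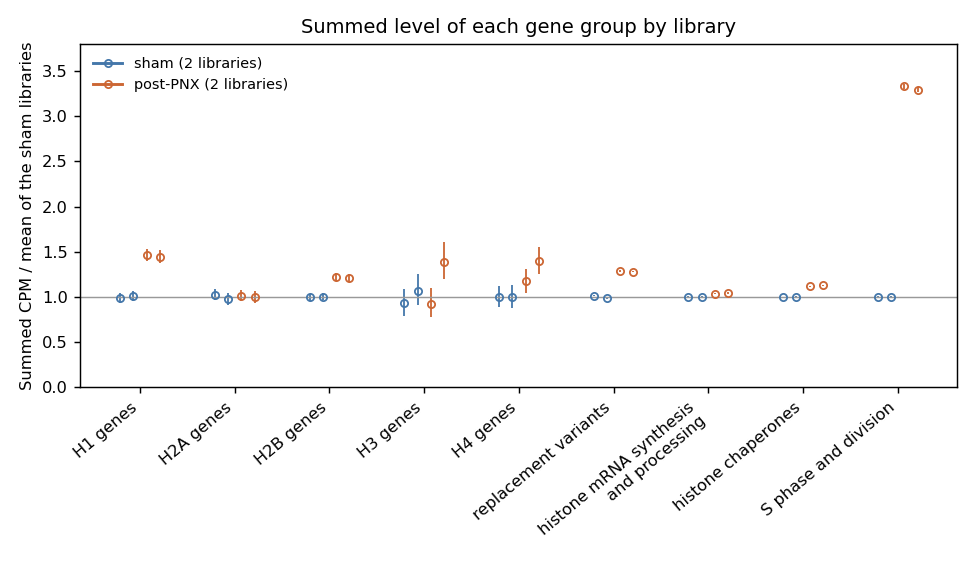
Summed CPM of each group of genes in each library, divided by the mean of the sham libraries, with 95% exact binomial intervals that cover counting error only. The 5 types of replication-dependent genes, the variants and the supply genes have points below 1.5 times the sham mean in both post-PNX libraries, and the genes of S phase and division stand above 3.

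The libraries were selected for poly(A) RNA, so the counts on genes whose mRNA ends at the stem-loop are of the RNA that passed this selection. RNAs that lack a poly(A) tail for other reasons were counted beside them. Of 75 genes tested for small nuclear, small nucleolar, ribosomal and other such RNAs, 4 were higher (29.3% of all genes) and 2 lower (27.8% of all) at an adjusted p under 0.01, and their median log2 fold change was -0.10. Rn45s, the precursor of ribosomal RNA, chosen after its values were seen, made up most of their counts, with 36583 and 31307 in sham ECs against 43567 and 49404 after PNX (log2 fold change 0.59, adjusted p = 4.3e-21). The part of RNA without a tail in the levels of the replication-dependent genes was not tested.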

How the data were processed

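RNA of CD31-selected lung ECs was sequenced as paired ends from stranded mRNA libraries, per the labels and the methods of the study, and aligned to mm10. STAR is named in the submitters' processing notes. The counting program, its use of strand and its treatment of reads that match several copies are not given in the sources used here.

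The authors deposited whole-number counts for each of 33068 RefSeq transcripts per library, without normalization, beside FPKM and TPM values that the authors computed from them. Counts were used for all tests and the deposited TPM values for levels between genes. The deposited FPKM values served only to derive, together with the counts, the lengths given for the transcripts that were counted. For each symbol the transcript with the highest summed count was taken.

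Counts were fitted in R 4.3.3 with edgeR 4.0.16 (filterByExpr, TMM factors between 0.9985 and 1.0026, quasi-likelihood F test, Benjamini-Hochberg adjustment over 16208 genes). The thresholds were an adjusted p under 0.01 and, where stated, a log2 fold change beyond 1. For type sums the rows of a type were replaced by their sum (16182 features). Standard errors are the log2 fold change over the square root of F. The steps were tested on simulated data. Alternatives were DESeq2 1.42.0 size factors and Wald test, library size alone, scaling to 12 endothelial markers, no filter, a mean of at least 50 counts, the replicate number as a block, transcripts summed, and each library left out. Taking equal copies once in the type sums was an alternative chosen after seeing the data.

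The members, the gene lists and the tests were chosen with earlier results of these data known. The genes named are the 10 variants, the 3 genes of each type with the highest counts, those past both thresholds, Cenpa, Slbp, Npat and supply genes past both thresholds, and others were chosen after their values were seen. A gene of the chaperone list is not reported here and was left out of the counts for that list. Stem-loops, windows and exons come from GENCODE M21, and promoters from RefSeq GRCm38.p6. The GENCODE transcripts can differ in length from the RefSeq transcripts that were counted.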

Additional observations from a re-analysis of the deposited data

How the results depend on the processing

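The replicate numbers do not pair the libraries, which come from different mice (correlation of the differences between numbers 1 and 2 across groups 0.03), and with the replicate number as a block 3 replication-dependent genes were higher past both thresholds, as without it, and no count of calls moved by more than 1.5 times. The number of replication-dependent genes higher past both thresholds (3) was 5 when scaled to the endothelial markers, 0 with a mean of at least 50 counts (9 genes tested), 1 by DESeq2's Wald test, 1 with transcripts summed and between 1 and 3 with a library left out. The number higher at an adjusted p under 0.01 (6) was 10 when scaled to the endothelial markers and 3 with a mean of at least 50 counts. Variants called lower (0) became 1, H3f3a, without the second sham library. The scaling to endothelial markers raised the share of calls past both thresholds that were higher from 78.1% to 93.3%.

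For the type sums, the H2A change (log2 0.00) was 0.24 under the endothelial scaling, -0.0041 with equal copies taken once, an alternative chosen after seeing the data, and between -0.029 and 0.041 with a library left out. The H3 change (0.20) was 0.43 under the endothelial scaling, where it passed, 0.42 with equal copies taken once (adjusted p = 0.020) and between -0.11 and 0.48 with a library left out, where it passed without the first post-PNX library. The H4 change (0.35) did not pass by DESeq2's Wald test (0.35, adjusted p = 0.036) and was between 0.23 and 0.48 with a library left out. For genes of the report without a call, the endothelial scaling turned the log2 fold change to 0.036 for Hist1h4d, 0.21 for Hist2h2be, 0.023 for Hist2h3c1 and Hist2h3c2, 0.11 for Hist2h4, 0.19 for Hist3h2a (called higher) and 0.24 for Npat (called higher), whose change was 0.0028 with library size alone and 0.00071 with a mean of at least 50 counts. With a library left out the sign was not fixed for Hist1h2ae (-0.078 to 1.22), Hist1h2bg (-0.041 to 0.61), Hist1h4d (-0.44 to 0.058), Hist1h4m (-0.11 to 0.45), Hist1h4n (-0.058 to 0.30), Hist2h2be (-0.11 to 0.037), Hist2h3c1 and Hist2h3c2 (-0.62 to 0.14), Hist2h4 (-0.48 to 0.42), H3f3a (-0.11 to 0.13) and Npat (-0.071 to 0.079). Of 595 values of 52 named genes under the alternatives, 549 kept their direction and side of the threshold. The causes of these differences were not tested. Of the 68 replication-dependent genes 37 did not pass the filter on low counts.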
